A study of Rattus norvegicus with 18 samples.

Results

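The genes described here are all those that the deposited count table places on the rat mitochondrial chromosome, MT: 37 of the 34873 genes listed. By the biotype given in the table they are 13 protein-coding genes, 2 ribosomal RNA (rRNA) genes and 22 transfer RNA (tRNA) genes, and each was kept as a separate gene. The study measured RNA by sequencing in rat brain, with 18 libraries split evenly over 3 groups, 6 to a group. NC libraries came from wild-type rats whose labels enter no treatment. CO libraries came from wild-type rats that inhaled carbon monoxide, and CLCF1 libraries from rats labelled as a CLCF1 knock-down that inhaled it too. The series text gives the exposure as 1000 ppm for 40 minutes and then 3000 ppm for 20 minutes, with carboxyhaemoglobin above 60% as the sign of a successful model. That text also describes shRNA against CLCF1 carried by lentivirus into bone marrow-derived macrophages, liposomes that precede macrophage transfer, and the transfer itself, without saying which of these the brains of each group received. The age, sex and strain of the rats, the brain region and the time of sampling were not found in the labels. Nothing in the labels says that the 6 libraries of a group are 6 animals, so p-values here measure only the spread between libraries, which may be technical.

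The mitochondrial genome is a small circle that encodes core subunits of the respiratory chain together with the rRNAs and tRNAs needed to translate them inside the organelle. Both strands are transcribed as long precursors, the tRNAs that punctuate these are cut out, and the mRNAs and rRNAs left between them receive short A tails. Complex I (NADH dehydrogenase), complex III (cytochrome bc1), complex IV (cytochrome c oxidase) and complex V (ATP synthase) are built from these subunits and many nuclear-encoded ones. Complex IV passes electrons to oxygen at a haem and copper centre in the subunit made by Mt-co1, and carbon monoxide can bind that haem in place of oxygen. Brain tissue depends heavily on this chain for its ATP.

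Mitochondrial mRNA was a large part of these libraries. In CO all 13 mRNAs lay below NC, with a median log2 fold change of -0.21, Mt-co2 furthest, but 1 of 13, Mt-atp8, passed the threshold, a call that several alternatives ended. Over all genes tested, 12.7% changed in that comparison. Large called differences were in the small rRNA, which fell in CO and in CLCF1 against NC, and in a few tRNAs counted at low levels. None of these passed with libraries 1 and 2 alone, where almost no gene did. Of all genes, 0.0238% passed there in CO against NC and 0.0119% in CLCF1 against NC. Among libraries 1 and 2, NC library 2 lay among the CO and CLCF1 values of the small rRNA, and NC library 1 lay far above them. Between CLCF1 and CO edgeR called 0 of 25 mitochondrial genes, beside 17.0% of all genes, and DESeq2 called 2 of 36, beside 23.2%. Of the complex IV genes, Mt-co2 had the log2 fold change furthest from 0 in each comparison, and its libraries were widely spread in every group. Whether complex IV differed from the other complexes was not tested.

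Libraries 3 to 6 stood apart from libraries 1 and 2 in each group, so fold changes are given with libraries 1 and 2 alone beside them, except where a range over genes is given instead. Among genes counted somewhere in the series there were 5943 cases of a gene at 0 in libraries 1 and 2 of a group, and in 0 of them was the gene counted in its libraries 3 to 6. In the other direction, 896 of 6839 genes at 0 in libraries 3 to 6 were counted in library 1 or 2. Whether libraries 3 to 6 are independent samples was not tested. The depth was 15.1 to 20.3 M counts per library, with a mean of 17.5 ± 1.47 M (SD, n = 18). Clcf1, the targeted gene, had 1 to 7 counts per library in NC, 80 to 118 in CO and 0 to 3 in CLCF1. All 11 neuronal marker genes were above a mean of 1 CPM in each group, and so were all 6 astrocyte, all 6 oligodendrocyte and all 6 microglial markers, while the endothelial marker Cldn5 was at 0 in every group. In bulk tissue, fewer cells of a type and less RNA per cell cannot be told apart.

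Levels are given as CPM, counts scaled to 1e6 per library after TMM scaling, a scaling that sets libraries to a common level over most genes. To compare genes of unequal length, CPM was also divided by the length of the gene in kb. Per kb, the mRNA of Mt-co1, the catalytic subunit of complex IV, stood highest in NC at 25422 CPM per kb. Mt-atp6, a membrane subunit of ATP synthase, followed at 24209 CPM per kb and Mt-cox3, the third complex IV subunit, at 21907 CPM per kb. Mt-cytb, the only complex III subunit encoded here, stood at 13212 CPM per kb. These 4 genes stood first, in this order, in CO and in CLCF1 as well.

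The 7 complex I genes spanned a wide range. Mt-nd1 had 8951 and Mt-nd2 8056 CPM per kb in NC, close to Mt-co2, the copper-binding subunit of complex IV, at 8877. Mt-nd3 stood at 5226, Mt-nd4l at 2889, Mt-nd5 at 2506 and Mt-nd6 at 2159 CPM per kb in NC. Mt-nd6 is the single protein-coding gene on the other strand. Mt-nd4 was at 957 CPM per kb in NC although it shares its transcript with Mt-nd4l, and Mt-atp8 at 267 although it shares one with Mt-atp6. The annotated genes overlap by 43 bases in the pair Mt-atp8 and Mt-atp6 and by 7 bases in the pair Mt-nd4l and Mt-nd4. Mt-nd5 and Mt-nd6 share 23 bases on opposite strands. Neither the strand setting nor the treatment of reads in such overlaps is given in the sources used here, so the levels of the short partners Mt-atp8 and Mt-nd4l and of Mt-nd6 are uncertain.

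**Figure D1:**
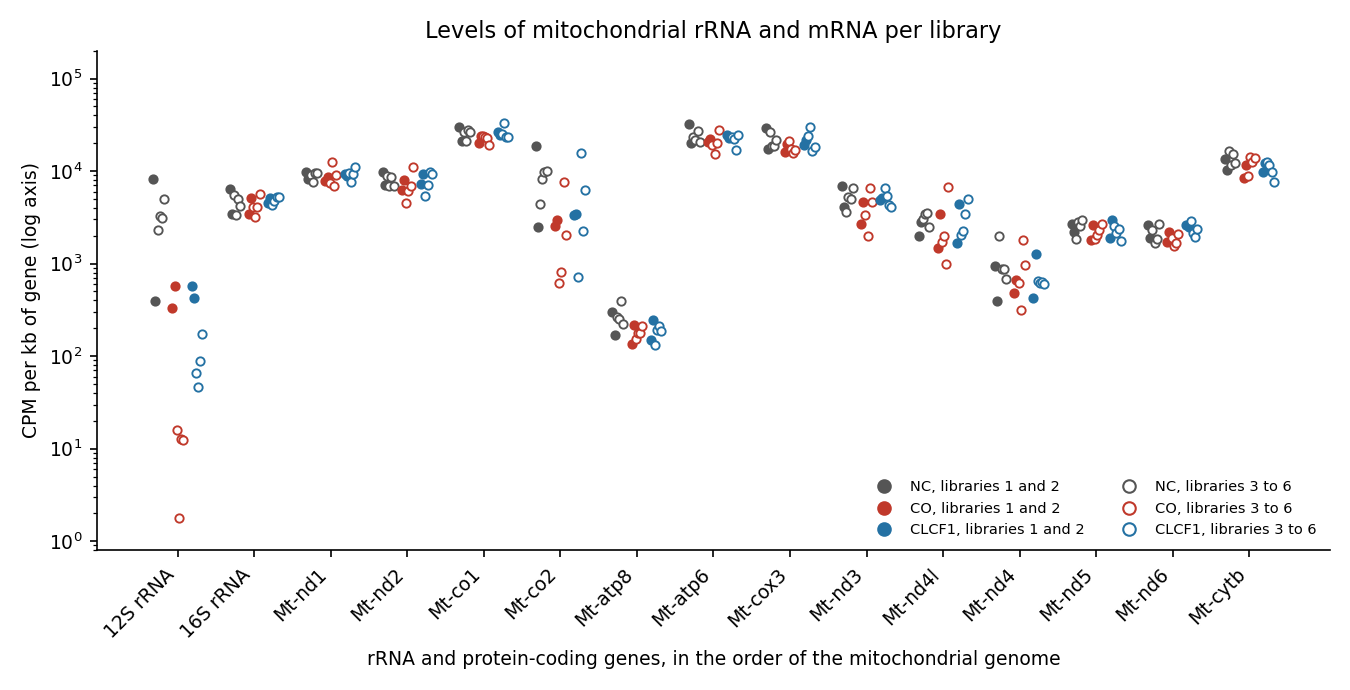
Level of the 2 rRNA and 13 protein-coding mitochondrial genes in each of the 18 libraries, in CPM per kb of gene on a log axis, with genes in genome order; filled points are libraries 1 and 2 and open points libraries 3 to 6 of NC, CO and CLCF1. Most mRNAs form tight clusters over all groups, while the 12S rRNA, Mt-co2 and Mt-nd4 spread widely.

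Protein-coding mitochondrial genes took 10.2% to 14.9% of all counts in NC, with a mean of 12.2% ± 1.64 (SD, n = 6). In CO they took 8.86% to 10.9%, with a mean of 10.0% ± 0.747 (SD, n = 6), and in CLCF1 10.3% to 13.4%, with a mean of 11.5% ± 1.07 (SD, n = 6). The groups overlapped: the lowest NC library lay below the highest CO libraries, and CLCF1 lay between the other two means. The means of libraries 1 and 2 alone were 12.6% in NC, 9.88% in CO and 11.5% in CLCF1. The NC pair itself spanned 10.2% to 14.9%, so that it enclosed both CLCF1 libraries and the higher CO library.

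The mRNAs tended to move together between libraries of 1 group. In NC, 1 of 13 mRNAs was higher in library 2 than in library 1. In CO 13 of 13 were higher in library 2, and in CLCF1 9 of 13. Summed oligodendrocyte markers moved with this in NC and CO: they were 20905 CPM in NC library 1 and 9432 in library 2, and 10196 in CO library 1 and 20537 in library 2. In CLCF1 they did not, with 13996 CPM in library 1 and 8088 in library 2. Summed neuronal markers ran from 6078 to 6914 CPM in NC, from 7760 to 8562 in CO and from 7040 to 7681 in CLCF1. These sums did not overlap between the 3 groups and stood in the reverse order of the mitochondrial share. Single neuronal markers did not all share that order. By group mean, Snap25, Slc17a7, Syn1 and Stmn2 did. Syt1, Tubb3 and Gad1 were highest in CLCF1, Nefl and Nefm were lowest in CLCF1, and Gad2 and Rbfox3 were highest in NC. Other markers differed between groups too. Summed fibroblast and meningeal markers had means of 372 CPM in NC, 165 in CO and 276 in CLCF1, and choroid plexus markers 44.9, 14.0 and 2770 CPM. The last were spread from 10.1 to 5883 CPM within CLCF1. The part of cell makeup in the mitochondrial levels was not tested.

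Complex IV took the largest share of mitochondrial mRNA counts in every group. Its 3 genes held 51.6% ± 2.15 (SD, n = 6) of them in NC, 49.5% ± 5.38 in CO and 52.7% ± 4.89 in CLCF1. Library values ran from 49.8% to 54.7% in NC, from 39.9% to 56.5% in CO and from 49.1% to 62.3% in CLCF1, and the groups overlapped fully. Libraries 1 and 2 alone gave means of 52.2%, 50.3% and 51.0%. Complex I held 22.2% in NC, 23.6% in CO and 23.2% in CLCF1. Complex III held 12.5%, 12.9% and 10.6%, and complex V 13.7%, 14.0% and 13.5%, in the same order of groups. Dividing counts by gene length put complex IV at 44.8% in NC, 41.9% in CO and 44.8% in CLCF1. No test was made of these shares, which are sums over the genes described.

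**Figure D2:**
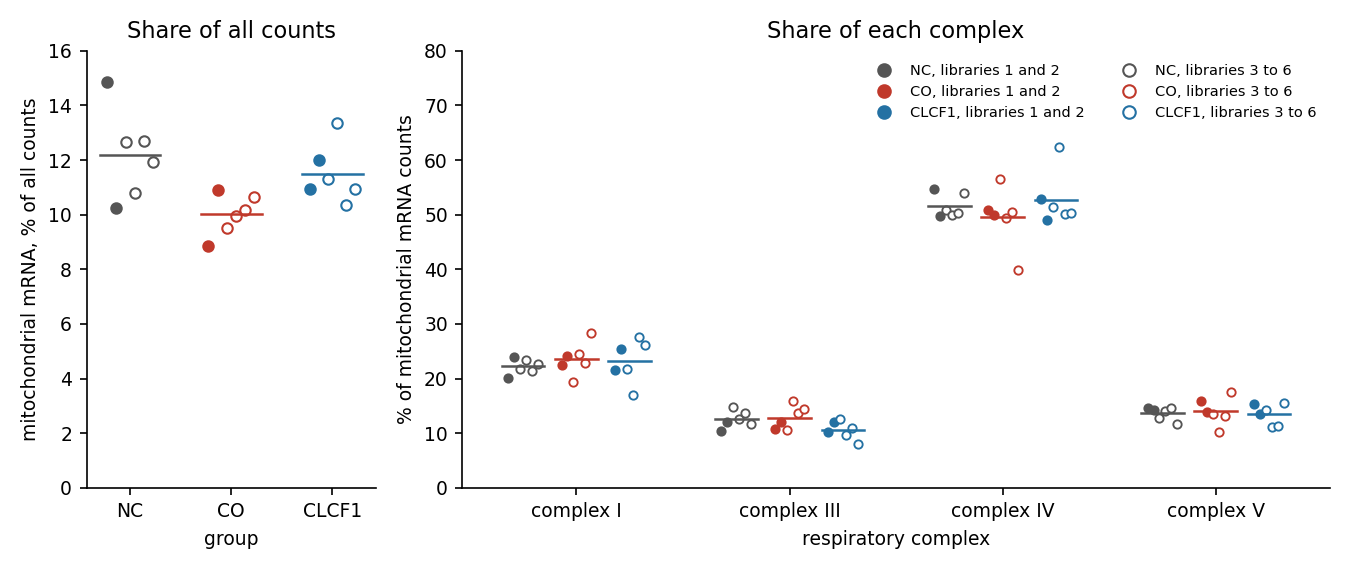
Left, protein-coding mitochondrial genes as a percent of all counts in each library; right, the percent of mitochondrial mRNA counts held by complexes I, III, IV and V. Points are libraries (filled 1 and 2, open 3 to 6), short lines are group means, and complex IV holds about the same share in the 3 groups with the widest spread in CO and CLCF1.

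The comparison of CO with NC sets rats that inhaled carbon monoxide against rats whose labels enter no treatment. Of the 25 mitochondrial genes that passed the filter on low counts, 5 changed, 2 higher and 3 lower in CO (edgeR quasi-likelihood test, Benjamini-Hochberg adjusted p under 0.05). Over all 16581 genes tested, 12.7% changed, 6.32% higher and 6.40% lower. A set of 25 genes is too small to read a difference from that background. Of the 25, 22 were at or above the level that the filter asks for, 0.569 CPM, in all 18 libraries. The other 3 were the tRNAs AY172581.15, AY172581.19 and AY172581.1, which passed through some groups more than others. In libraries 1 and 2 alone 0 of 25 passed, and 0 also had an unadjusted p under 0.05, while DESeq2 called 0. Of all genes, 0.0238% passed with those libraries by edgeR, 3.53% had an unadjusted p under 0.05 and 0.306% passed by DESeq2. Libraries 3 to 6 alone gave 3 calls, the small rRNA and 2 tRNAs, against 5.51% of all genes.

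The 3 complex IV mRNAs lay below NC in CO, and none passed. Mt-co1 ran from 32570 to 46058 CPM in NC with a median of 40505, and from 29350 to 37376 CPM in CO with a median of 35608. The ranges overlapped, with 4 of 6 NC libraries above every CO library. Its log2 fold change was -0.20 ± 0.11 (SE, adjusted p = 0.253, edgeR), and -0.23 with libraries 1 and 2 alone. Mt-cox3, a core subunit beside Mt-co1, ran from 13626 to 22742 CPM in NC with a median of 15798, and from 12380 to 16529 in CO with a median of 13332. Its log2 fold change was -0.30 ± 0.15 (SE, adjusted p = 0.195, edgeR), and -0.39 with libraries 1 and 2 alone.

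Mt-co2, the subunit that takes electrons from cytochrome c, showed the lowest fitted value of the 13 mRNAs together with the widest spread. In NC it was at 12650, 1684, 3030, 5616, 6666 and 6786 CPM in libraries 1 to 6. In CO it was at 1744, 2046, 425, 558, 5231 and 1390 CPM. NC library 1 stood above all others, CO library 5 was far above the rest of CO, and the groups overlapped. The log2 fold change was -1.68 ± 0.66 (SE, adjusted p = 0.0989, edgeR), which missed the threshold. With libraries 1 and 2 alone it was -1.95, a value that rested on NC library 1: the other 5 libraries numbered 1 or 2 held 1684 to 2376 CPM, and NC library 1 was 5.32-fold above the highest of them.

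The 10 genes of complexes I, III and V were also below 0 in CO without exception, with a median log2 fold change of -0.20, against -0.30 for the 3 genes of complex IV and 0.01 for all genes tested. The difference between these medians was not tested. None of the 7 complex I genes passed, with values from -0.40 for Mt-nd3 to -0.03 for Mt-nd1. Mt-cytb, the electron-carrying subunit of complex III, was at -0.20 ± 0.16 (SE, adjusted p = 0.423, edgeR), and -0.27 with libraries 1 and 2 alone. Mt-atp6 was at -0.21 ± 0.14 (SE, adjusted p = 0.346, edgeR), and -0.29 with libraries 1 and 2 alone. In libraries 1 and 2 alone 12 of 13 mRNAs lay below 0, with a median of -0.26, and with libraries 3 to 6 alone 12 of 13, with a median of -0.20.

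Mt-atp8, a small membrane subunit of ATP synthase, was the 1 mRNA that passed. It ran from 34.4 to 80.5 CPM in NC with a median of 52.5, and from 27.5 to 43.9 CPM in CO with a median of 36.1. All NC libraries but library 2 lay above every CO library. The log2 fold change was -0.58 ± 0.19 (SE, adjusted p = 0.0468, edgeR). Leaving out any of 11 single libraries ended the call, with adjusted p-values from 0.0199 to 0.109. It also ended with only NC and CO in the fit, at an adjusted p of 0.0617 (edgeR), and with libraries 1 and 2 alone the value was -0.45. Per kb, Mt-atp8 was counted at 1.10% of Mt-atp6 in NC and at 0.873% in CO, so the gene that passed is the one of the pair with few counts of its own.

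The rRNA genes differed from each other. The table names them only by their sequence identifiers, AY172581.9 at MT 68 to 1025 and AY172581.24 at MT 1094 to 2664, both on the plus strand. The first is 958 and the second 1571 bases long, and by that length and order they are the 12S rRNA of the small and the 16S rRNA of the large mitochondrial ribosomal subunit. The 12S rRNA was at 7938, 381, 2221, 3167, 3005 and 4797 CPM in NC libraries 1 to 6, and at 319, 547, 15.3, 1.72, 12.3 and 11.8 CPM in CO. NC library 2 lay within the CO range, all other NC libraries lay above it, and CO libraries 3 to 6 lay far below CO libraries 1 and 2. The log2 fold change was -4.57 ± 1.17 (SE, adjusted p = 0.017, edgeR), and the call held without each single library in turn.

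Libraries 1 and 2 gave another picture of the 12S rRNA than libraries 3 to 6. With libraries 1 and 2 alone the log2 fold change was -3.29 ± 1.48 (SE, adjusted p = 0.999, edgeR). NC library 1, at 7938 CPM, was 14.3-fold above the highest of the other 5 libraries numbered 1 or 2, which ran from 319 to 554 CPM over all 3 groups. NC library 2, at 381 CPM, therefore did not stand apart from CO or CLCF1. With libraries 3 to 6 alone the log2 fold change was -8.33 ± 0.70 (SE, adjusted p = 0.00016, edgeR). The lower of CO libraries 1 and 2 was 20.9-fold above the highest of CO libraries 3 to 6. Of 77 genes with a mean above 1000 CPM in libraries 1 and 2, 2 were at least 4-fold higher in NC library 1 than in each of the other 5, and both were mitochondrial, the 12S rRNA and Mt-co2; that count was made after the values were seen. Red blood cell markers were also at their highest in NC library 1, at a summed 684 CPM against 12.1 CPM in NC library 2, and their part in the result was not tested.

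The 16S rRNA, the neighbour of the 12S rRNA on the same precursor, did not share this pattern. It ran from 5308 to 10081 CPM in NC with a median of 7210, and from 4970 to 8993 CPM in CO with a median of 6435. The groups overlapped over most of their range. Its log2 fold change was -0.12 ± 0.16 (SE, adjusted p = 0.68, edgeR), and -0.21 with libraries 1 and 2 alone. As counts, the 12S rRNA was 7.05% to 78.7% of the 16S rRNA in NC libraries and 0.0345% to 6.74% in CO libraries. With libraries 1 and 2 alone it was 78.7% and 7.05% in NC, and 5.85% and 6.74% in CO.

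**Figure D3:**
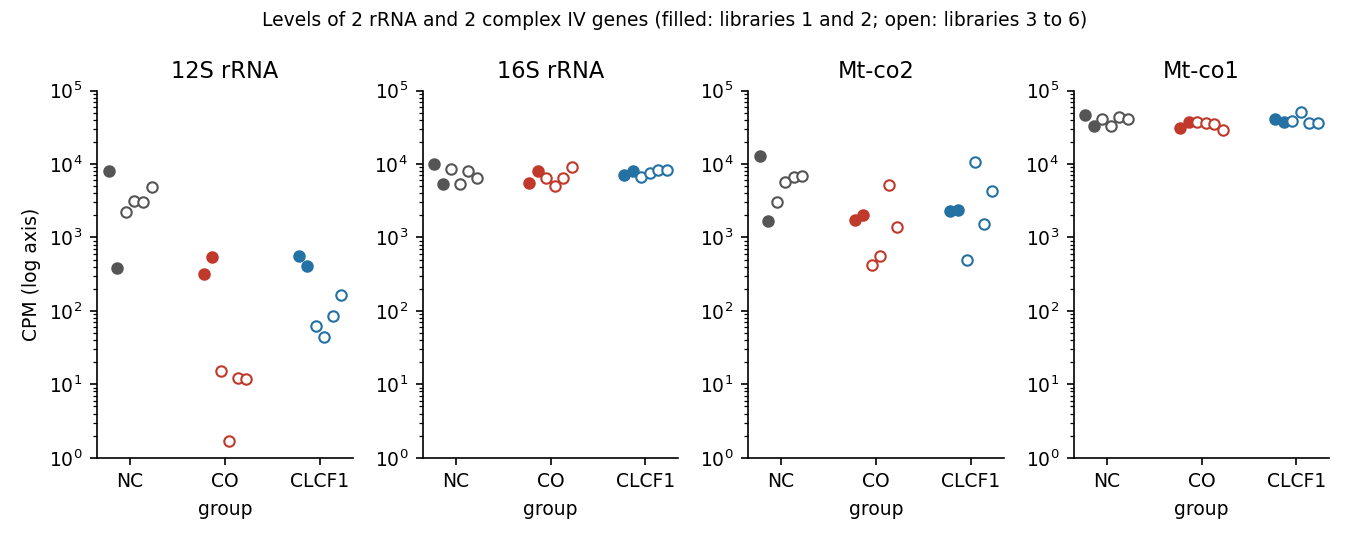
CPM of the 12S rRNA, 16S rRNA, Mt-co2 and Mt-co1 in each library on a log axis, by group; filled points are libraries 1 and 2 and open points libraries 3 to 6. The 12S rRNA runs from 1.72 to 7938 CPM and Mt-co2 from 425 to 12650 CPM, while the 16S rRNA and Mt-co1 stay within narrow bands in all 3 groups.

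Mitochondrial tRNAs were counted at low levels, with 1882 to 3517 counts per library over all 22 genes. These are short RNAs, folded and heavily modified, and the number of counts limits their precision. One gene, AY172581.2 at MT 15348 to 15415 on the minus strand, took 56.8% to 77.6% of them, and lies after Mt-cytb where mammalian mitochondrial genomes hold the proline tRNA. It rose in CO, from 60.1 to 94.2 CPM in NC with a median of 73.6 to between 86.1 and 131 CPM in CO with a median of 99.9. The groups overlapped, with 2 NC libraries inside the CO range. Its difference on the log2 scale was 0.43 ± 0.13 (SE, adjusted p = 0.0382, edgeR), the call was lost without any of 7 single libraries and with only NC and CO in the fit (adjusted p = 0.0745), and the value with libraries 1 and 2 alone was 0.26.

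AY172581.15, at MT 3835 to 3903 directly before Mt-nd2 where the methionine tRNA lies in mammals, was higher in CO, from a very low level. It was at 0.398, 0, 0, 0.112, 0.113 and 0 CPM in NC libraries 1 to 6, and at 0.837, 1.03, 0.756, 0.445, 3.53 and 0.191 CPM in CO. Of the CO libraries 5 lay above all of NC, and library 6 lay inside its range. On the log2 scale this was a difference of 3.46 ± 0.79 (SE, adjusted p = 0.00916, edgeR), and 2.28 with libraries 1 and 2 alone. It had 10 counts over the 6 NC libraries and 108 over those of CO. It reached the filter's level of 0.569 CPM in 0 NC, 4 CO and 6 CLCF1 libraries, so it was tested through the groups in which it was high, and with only NC and CO in the fit it was not tested. The call is therefore no independent sign of a difference from NC.

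AY172581.19, at MT 6865 to 6933 on the minus strand behind Mt-co1, in the place of a serine tRNA, was lower in CO. It ran from 0.675 to 2.86 CPM in NC with a median of 1.12, and from 0.252 to 0.837 CPM in CO with a median of 0.538. The ranges overlapped at NC library 6. On the log2 scale the difference was -1.32 ± 0.37 (SE, adjusted p = 0.0271, edgeR), it was lost without any of 4 single libraries and with only NC and CO in the fit (adjusted p = 0.0514), and it was -0.46 with libraries 1 and 2 alone. It reached the filter's level in 6 NC, 3 CO and 4 CLCF1 libraries, so NC, where it was high, brought it into the test. AY172581.20, between Mt-nd6 and Mt-cytb in the place of the glutamate tRNA, was at 0.75 ± 0.26 (SE, adjusted p = 0.0646, edgeR), and 0.57 with libraries 1 and 2 alone. The other 6 tRNAs tested were between -0.46 and 0.26 on the log2 scale and did not pass. They are AY172581.14, AY172581.18, AY172581.10, AY172581.7, AY172581.1 and AY172581.16.

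**Figure D4:**
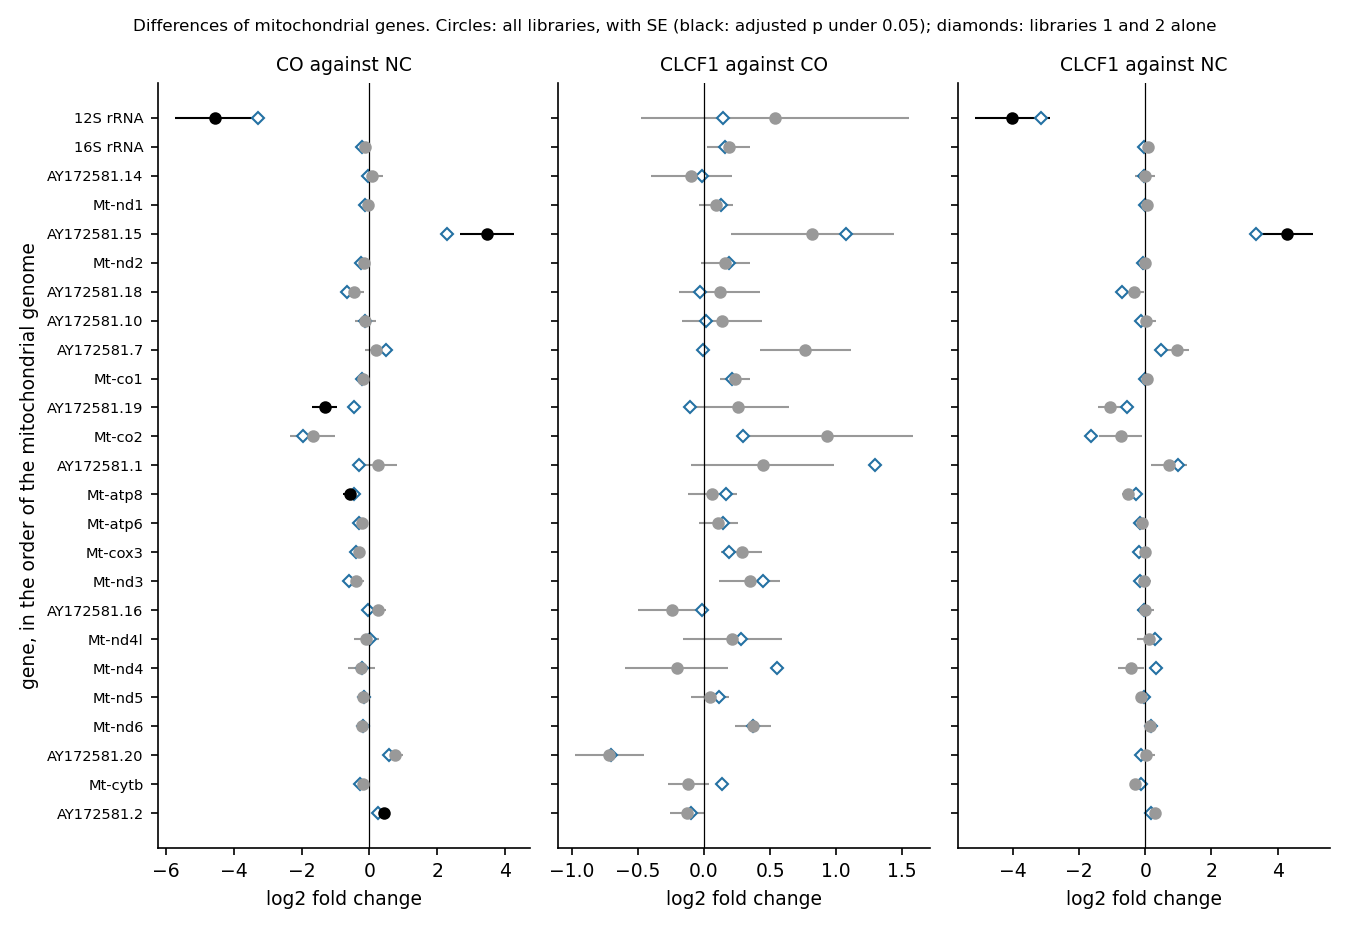
Log2 fold change of the 25 tested mitochondrial genes in the 3 comparisons, in genome order; circles are fits on all libraries with their standard error, black where the adjusted p was under 0.05, and open diamonds are fits on libraries 1 and 2 alone (each panel has its own scale). In the comparisons with NC the mRNAs lie close to 0 except Mt-co2, and the 12S rRNA and AY172581.15 lie furthest from it.

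CLCF1 knock-down against CO alone compares 2 groups of rats that all inhaled carbon monoxide. Which of them received liposomes or transferred macrophages is not stated, so the knock-down cannot be told apart from these. In edgeR's quasi-likelihood test 0 of 25 mitochondrial genes passed the adjusted threshold, while 17.0% of all genes tested did, 8.63% higher and 8.34% lower. At an unadjusted p under 0.05, 4 of 25 mitochondrial genes were counted, Mt-nd6, Mt-co1 and AY172581.7 higher and AY172581.20 lower, beside 32.2% of all genes. AY172581.7 had a log2 fold change of 0.77, but -0.01 with libraries 1 and 2 alone and 1.2 with libraries 3 to 6 alone. DESeq2 called 2 of 36, Mt-nd6 higher and AY172581.20 lower, beside 23.2% of all genes. In libraries 1 and 2 alone edgeR called 0 of 25, with 0 at an unadjusted p under 0.05, and DESeq2 called 0. The shares of all genes were 0.0476%, 4.86% and 0.527%. Libraries 3 to 6 alone gave 1 call, the 12S rRNA, against 8.62% of all genes.

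Most mRNAs lay above CO in CLCF1, 11 of 13, with a median log2 fold change of 0.16 beside 0.0018 for all genes. With libraries 1 and 2 alone 13 of 13 lay above 0, with a median of 0.19. The comparison shares its CO libraries with the one before, so that the opposite signs of the medians are not independent of each other. Complex IV had a median of 0.28 and the 10 genes of complexes I, III and V a median of 0.10.

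Mt-co1 ran from 36228 to 51247 CPM in CLCF1 with a median of 38433, and 4 of 6 CLCF1 libraries lay above every CO library. Its log2 fold change was 0.23 ± 0.11 (SE, adjusted p = 0.155, edgeR), and 0.21 with libraries 1 and 2 alone. Mt-cox3 was at 0.28 ± 0.15 (SE, adjusted p = 0.206, edgeR), with CLCF1 libraries from 12890 to 23543 CPM, and 0.19 with libraries 1 and 2 alone. Mt-co2 was at 2314, 2376, 487, 10710, 1530 and 4321 CPM in CLCF1 libraries 1 to 6. Library 4 held far more than the rest, and the log2 fold change was 0.93 ± 0.65 (SE, adjusted p = 0.346, edgeR), or 0.30 with libraries 1 and 2 alone.

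Mt-nd6, the light-strand subunit of complex I, came closest to the threshold among the mRNAs. It ran from 1012 to 1486 CPM in CLCF1 with a median of 1256, and from 809 to 1152 CPM in CO with a median of 934. The groups overlapped, with 4 of 6 CLCF1 libraries above every CO library. The log2 fold change was 0.37 ± 0.13 (SE, adjusted p = 0.0616, edgeR), and 0.37 with libraries 1 and 2 alone. AY172581.20 was at -0.72 ± 0.26 (SE, adjusted p = 0.0639, edgeR), with 1.67 to 3.94 CPM in CLCF1 and 3.29 to 6.11 CPM in CO, and -0.70 with libraries 1 and 2 alone. The 12S rRNA was at 554, 404, 63.0, 44.4, 84.5 and 166 CPM in CLCF1 libraries 1 to 6. Libraries 1 and 2 lay near CO libraries 1 and 2, at 319 and 547 CPM, while libraries 3 to 6 lay above CO libraries 3 to 6, at 15.3 CPM or less. Its log2 fold change was 0.54 ± 1.01 (SE, adjusted p = 0.76, edgeR) over all libraries, 0.14 with libraries 1 and 2 alone and 3.12 with libraries 3 to 6 alone.

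CLCF1 knock-down with carbon monoxide against NC sets both interventions against NC. Of 25 mitochondrial genes 2 changed, AY172581.15 higher and the 12S rRNA lower, beside 9.26% of all genes, 4.43% higher and 4.84% lower (edgeR, adjusted p under 0.05). In libraries 1 and 2 alone edgeR called 0 of 25, with 1 at an unadjusted p under 0.05, AY172581.15, and DESeq2 called 0. The shares of all genes were 0.0119%, 2.49% and 0.244%. Libraries 3 to 6 alone gave 2 calls, both of them the genes called with all libraries, against 4.42% of all genes. The 13 mRNAs had a median log2 fold change of -0.05, with 9 below 0. Medians were -0.02 for complex IV and -0.08 for complexes I, III and V.

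The 12S rRNA had a log2 fold change of -4.03 ± 1.14 against NC (SE, adjusted p = 0.0327, edgeR). Of the NC libraries 5 lay above every CLCF1 library, and NC library 2 lay inside their range. The call was lost without NC library 1 and without any of CLCF1 libraries 3 to 6, with adjusted p-values from 0.0179 to 0.0648, and the value was -3.15 with libraries 1 and 2 alone. AY172581.15 was at 0.834, 3.16, 1.61, 2.28, 2.71 and 1.40 CPM in CLCF1 libraries 1 to 6, all above every NC library. Its log2 fold change was 4.28 ± 0.79 (SE, adjusted p = 0.00278, edgeR), and 3.35 with libraries 1 and 2 alone. With 10 counts in NC against 227 in CLCF1 this size is imprecise, and the gene again entered the test through CO and CLCF1 libraries. Mt-atp8, with 26.9 to 50.1 CPM in CLCF1, was at -0.52 ± 0.19 (SE, adjusted p = 0.0848, edgeR), and -0.28 with libraries 1 and 2 alone. The 2 comparisons with NC share the NC libraries.

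Of the 22 tRNA genes, 12 did not pass the filter on low counts and were not tested. AY172581.13 had 0 counts in all 18 libraries. AY172581.22, in the place of the alanine tRNA, had 24 counts in 5 CLCF1 libraries and 0 in the 12 libraries of NC and CO. AY172581.8, in the place of the threonine tRNA, had 22 counts in NC, 0 in CO and 5 in CLCF1. AY172581.5 had 5 counts in NC, 76 in CO and 52 in CLCF1, and AY172581.3 had 22, 40 and 71. A total of 0 in a group still allows up to 3 counts by counting error alone, so these sums are descriptions at the limit of the depth.

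Some loci outside MT carry a description of a mitochondrial protein in the table, so reads of near-identical sequence could be counted in either place. The largest is an unnamed locus at chromosome 20, 19484415 to 19485847, described as chain 4 of NADH dehydrogenase, the protein of Mt-nd4. In libraries 1 and 2 Mt-nd4 ran from 540 to 1773 CPM, a 3.28-fold span, and the locus from 110 to 1343 CPM, a 12.2-fold span. Their sum ran from 1438 to 1886 CPM, a 1.31-fold span. In the NC and CLCF1 pairs the library lower in one was higher in the other, while CO library 2 was above CO library 1 in both. In libraries 3 to 6 the sum ran from 960 to 4181 CPM, a 4.36-fold span, and did not hold this balance. Mt-nd4 is therefore uncertain here. Its log2 fold change was -0.24 in CO against NC, and -0.23 with libraries 1 and 2 alone. In CLCF1 against CO it was -0.21, but 0.55 with libraries 1 and 2 alone and -0.58 with libraries 3 to 6 alone. In CLCF1 against NC it was -0.45, but 0.32 with libraries 1 and 2 alone. None of these passed. The 2 smaller loci counted, on chromosome 5, are described as the proteins of Mt-nd3 and Mt-nd4l, with 2234 and 243 counts in all libraries together.

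**Figure D5:**
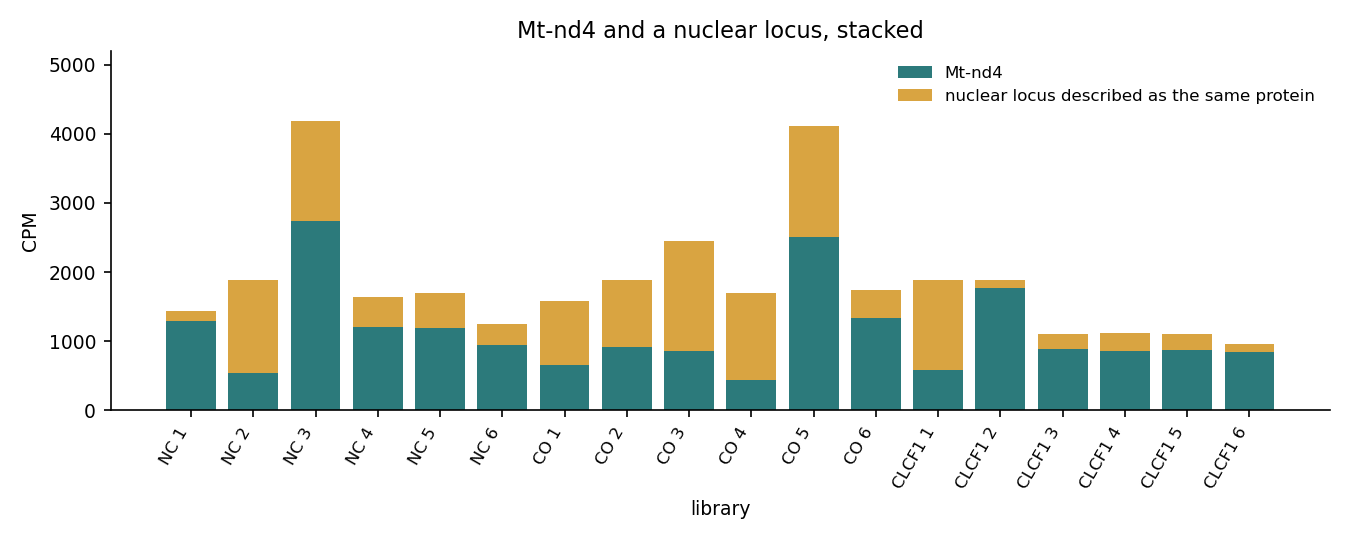
CPM of Mt-nd4 and, stacked on it, of the nuclear locus described as the same protein, in each of the 18 libraries. In libraries 1 and 2 the summed height stays between 1438 and 1886 CPM while the split between the parts varies, and in libraries 3 to 6 the summed height runs from 960 to 4181 CPM.

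Nuclear genes that serve the mitochondrial genome are given by lists, each count beside the same shares of all genes: 12.7% in CO against NC, 17.0% in CLCF1 against CO and 9.26% in CLCF1 against NC. Values with libraries 1 and 2 alone follow each gene as a log2 fold change. Of 15 tested genes of mitochondrial transcription and replication, 1 rose and 2 fell in CO against NC, and their median log2 fold change was -0.14. Polg, the mitochondrial DNA polymerase, rose by 0.60 ± 0.12 (SE, adjusted p = 0.00455, edgeR), and was at 0.65 with libraries 1 and 2 alone. Lig3, a DNA ligase used in mitochondria, fell by 0.62 ± 0.15 (SE, adjusted p = 0.00985, edgeR), at -0.44 in libraries 1 and 2. Ssbp1, the mitochondrial single-strand DNA-binding protein, fell by 0.41 ± 0.13 (SE, adjusted p = 0.0482, edgeR), at -0.31 in libraries 1 and 2. In CLCF1 against CO, Top1mt, the mitochondrial topoisomerase, fell by 0.76 ± 0.20 (SE, adjusted p = 0.0138, edgeR), at -0.36 in libraries 1 and 2, and was the 1 gene of 15 that changed. Against NC, Lig3 and Top1mt fell in CLCF1 by 0.52 and 0.90, at -0.23 and -0.33 in libraries 1 and 2, and none of the 15 rose.

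Of 18 tested genes of mitochondrial RNA processing, polyadenylation and decay, edgeR called 1 in CO against NC, beside 12.7% of all genes. It called 0 in CLCF1 against CO and 0 in CLCF1 against NC, beside 17.0% and 9.26%. At an unadjusted p under 0.05 there were 4 in each of these 2 comparisons, beside 32.2% and 25.2% of all genes. In CO against NC Fastk, a member of a family of mitochondrial RNA-binding proteins, rose by 0.38 ± 0.09 (SE, adjusted p = 0.0103, edgeR), at 0.18 in libraries 1 and 2. Among 14 regulators of mitochondrial biogenesis, Esrra, an orphan nuclear receptor that drives respiratory genes, rose in CO against NC by 0.52 ± 0.13 (SE, adjusted p = 0.0161, edgeR) and in CLCF1 against NC by 0.44 ± 0.13 (SE, adjusted p = 0.0422). It was at 0.30 and 0.26 in libraries 1 and 2. In CLCF1 against CO, Gabpa, a transcription factor of nuclear respiratory genes, rose by 0.82 ± 0.22 (SE, adjusted p = 0.0142, edgeR), at 0.54 in libraries 1 and 2. Ppara, a nuclear receptor of fatty acid oxidation, rose by 1.83 ± 0.40 (SE, adjusted p = 0.00485, edgeR), at 0.95 in libraries 1 and 2. Its level was low, at 0.575 ± 0.258 CPM in CO and 2.06 ± 0.985 CPM in CLCF1 (SD, n = 6). It reached the filter's level of 0.569 CPM in 6 NC, 3 CO and 6 CLCF1 libraries. Nrf1, a further factor of nuclear respiratory genes, fell by 0.64 ± 0.19 (SE, adjusted p = 0.0244, edgeR), at -0.24 in libraries 1 and 2.

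Nuclear-encoded subunits of complex IV were 18 tested genes with 16 symbols. In CO against NC 1 rose and 0 fell, beside 12.7% of all genes called, with a median log2 fold change of 0.07. The table lists Cox7a2, a small nuclear subunit, under 2 gene IDs that near-identical reads could share. The abundant one had 192 ± 34.7 CPM in NC and 228 ± 30.3 CPM in CO (SD, n = 6), a log2 fold change of 0.25 ± 0.13 (SE, adjusted p = 0.203, edgeR). The minor one rose from 8.38 ± 5.81 CPM in NC to 30.5 ± 10.6 CPM in CO (SD, n = 6), a log2 fold change of 1.86 ± 0.32 (SE, adjusted p = 0.00171, edgeR), and 1.04 with libraries 1 and 2 alone. In CLCF1 against CO the 1 gene of 18 called was Cox8b, at 0.309 ± 0.248 CPM in CO and 1.19 ± 0.540 CPM in CLCF1 (SD, n = 6). It reached the filter's level in 1 NC, 1 CO and 5 CLCF1 libraries, so it was tested through the group in which it was high. Against NC, 2 were called higher in CLCF1 and 1 lower. They were Cox8b, with the same limit, the minor Cox7a2 gene at 1.92 (1.59 in libraries 1 and 2, and 0.17 for the abundant gene, adjusted p = 0.431, edgeR), and Cox5b, which fell by 0.44 ± 0.12 (SE, adjusted p = 0.0251, edgeR), at -0.43 in libraries 1 and 2.

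Of 16 assembly factors of complex IV, 0 passed in CO against NC in edgeR's test, beside 12.7% of all genes called. At an unadjusted p under 0.05 there were 3, beside 29.6% of all genes. DESeq2 was not counted over these lists. In CLCF1 against CO 3 of 16 changed, beside 17.0% of all genes. Cox16 rose by 0.83 ± 0.15 (SE, adjusted p = 0.00145, edgeR), at 0.64 in libraries 1 and 2, and Coa5 by 0.47 ± 0.14 (SE, adjusted p = 0.0245), at 0.23. Cox17, the copper chaperone of the complex, fell by 0.57 ± 0.19 (SE, adjusted p = 0.0397, edgeR), at -0.17 in libraries 1 and 2. In CLCF1 against NC 1 of 16 rose and 0 fell, beside 9.26% of all genes called.

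Of 15 genes for other mitochondrial proteins, taken as a measure of mitochondrial content, 3 rose in CO against NC and 0 fell, beside 6.32% of all genes higher and 6.40% lower. Cycs, the gene of cytochrome c, rose by 0.41 ± 0.09 (SE, adjusted p = 0.00878, edgeR), Phb2, an inner membrane scaffold protein, by 0.40 ± 0.11 (SE, adjusted p = 0.0222) and Slc25a4, an ADP/ATP carrier, by 0.31 ± 0.10 (SE, adjusted p = 0.0443). These were at 0.20, 0.15 and 0.14 in libraries 1 and 2. The median of all 15 was 0.05. In CLCF1 against NC 1 of 15 rose and 0 fell, beside 9.26% of all genes called. Of 8 genes of mitophagy, the removal of mitochondria by autophagy, 2 rose in CO against NC. The receptor Bnip3 rose by 0.47 ± 0.11 (SE, adjusted p = 0.00946, edgeR) and the adaptor Sqstm1 by 0.42 ± 0.10 (SE, adjusted p = 0.0124), at 0.28 and 0.26 in libraries 1 and 2. In CLCF1 against CO, where 2 of 8 changed beside 17.0% of all genes, Sqstm1 fell by 0.38 ± 0.10 (SE, adjusted p = 0.0151, edgeR) and the receptor Fundc1 rose by 0.42 ± 0.11 (SE, adjusted p = 0.016), at -0.29 and 0.24 in libraries 1 and 2.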

How the data were processed

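RNA of 18 rat brain libraries was sequenced, 6 per group. The values are unnormalized read counts, which the authors deposited as a single table of genes by libraries. Per the labels' protocols, 1.3 µg of total RNA entered each library, made with a SMARTER mRNA-Seq kit. For the aligner, the counter, the strand setting and the build, the answer is the same: not given in the sources used here. Coordinates are those of the table. Titles gave each sample's group and number. Tests used edgeR 4.0.16 (R 4.3.3): TMM scaling, filterByExpr defaults (16581 of 34873 genes kept), 1 robust quasi-likelihood fit over all 18 libraries without a block, and Benjamini-Hochberg adjustment over all genes tested at 0.05. Standard errors are fold change over the root of F. DESeq2 1.42.0 was an alternative. The fit was tested on simulated counts. CPM used TMM-scaled library sizes, and CPM per kb the gene length in the table. All tested mitochondrial genes and up to 4 changed genes per companion list and comparison, those with the smallest p, are named. The exceptions are assembly factors and other mitochondrial proteins in CLCF1 against NC, given as counts only. The members, companion lists and marker lists were chosen with earlier results of these data known. Pairs of libraries of 1 group differed beyond sampling noise (chi-square per degree of freedom 42.2 to 76.7 over 45 pairs). All 18 libraries were kept in the fit. The chi-square only asks whether a pair differs by more than counting error, so it cannot show that the libraries are independent samples. Their independence was not tested. Alternatives covered scaling, filter, tool, block, library sets and single libraries. Confidence limits on counts cover counting error only. No mitochondrial sequence is printed.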

Additional observations from a re-analysis of the deposited data

Results flagged for a closer look

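A single library was set far from the other 5 of its group in 11 of 96 checks of a gene or share in a group, 11.5%, where chance gives about 1 in 20 (Dixon's test at 95%). Among the mRNAs, Mt-nd4 reached 2742 CPM in NC library 3 and 1773 CPM in CLCF1 library 2, Mt-nd1 12120 CPM and Mt-co2 5231 CPM in CO libraries 4 and 5, and Mt-co1 51250 CPM in CLCF1 library 4. Mt-atp6 was low in CLCF1 library 5, at 11470 CPM. The share of complex IV in mitochondrial mRNA counts was 62.3% in CLCF1 library 4, the library with the highest Mt-co1 and Mt-co2 of its group. Among the tRNAs, all at low counts, AY172581.15 stood high in NC library 1 at 0.398 CPM and in CO library 5 at 3.53 CPM, AY172581.19 in NC library 4 at 2.86 CPM, and AY172581.1 in CO library 6 at 3.43 CPM. The causes were not tested.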

How the results depend on the processing

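Of all values recomputed, 1 per result and alternative, 1076 kept their direction and side of the threshold or moved by less than the spread, 42 lost the threshold, 17 passed it, 11 reversed and 36 moved further. The count of mitochondrial genes called in CO against NC, 5, became 1 with only the groups compared in the fit, where AY172581.15 was not tested, 0 with libraries 1 and 2 alone, 3 with libraries 3 to 6 alone, and 2 to 5 without 1 library. DESeq2 called 7 of 33 in CO against NC, beside 19.5% of all genes. In CLCF1 against CO the count of 0 became 2 with the library number as a replicate block, 1 with library size alone, 4 with no filter, 1 with libraries 3 to 6 alone, and 0 to 1 without 1 library. There DESeq2 called 2 of 36, beside 23.2% of all genes. In CLCF1 against NC the count of 2 became 5 with no filter, 0 with libraries 1 and 2 alone, and 1 to 3 without 1 library. For CLCF1 against NC DESeq2 called 7 of 36, 1 of them an mRNA, beside 17.0% of all genes. The share of all genes is not given for fits with only the groups compared, a block, library size alone, no filter or 1 library left out. Counts under these settings therefore cannot be set against a background. Fits with no filter also include tRNAs that were otherwise too low to test. The share of complex IV was 44.8%, 41.9% and 44.8% per kb in NC, CO and CLCF1, and 61.7%, 59.5% and 62.9% without Mt-nd6 and the overlapping pairs. Without Mt-co2, an alternative chosen after seeing the data, it was 49.1% in NC, 48.5% in CO and 51.3% in CLCF1. Reversed log2 fold changes in CO against NC, all uncalled, were 0.0085 for Mt-nd1 with libraries 3 to 6 alone and 0.011 for Mt-nd4l with libraries 1 and 2 alone. Without 1 library, values ran from -0.17 to 0.026 for Mt-nd1, -0.65 to 0.11 for Mt-nd4, -0.59 to 0.082 for Mt-nd4l and -0.22 to 0.023 for the 16S rRNA (AY172581.24) in that comparison, and from -0.017 to 1.61 for the 12S rRNA (AY172581.9) in CLCF1 against CO. The cause was not tested. Library numbers are shared by the groups but do not pair them: correlations of same-numbered deviations ran from -0.03 to 0.15, and 7 of 18 libraries correlated best with their own number. Under the block the adjusted p (edgeR) was 0.0629 for Mt-atp8 and 0.0554 for AY172581.19 in CO against NC, and 0.0334 for Mt-nd6 in CLCF1 against CO. Depth limits the tRNAs most, 12 of which were not tested.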
